A study of Mus musculus with 24 samples.

Results

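Liver mRNA of fed mice without hepatocyte Bcl6 was set against liver mRNA of fasted wild-type mice, to ask which parts of the fasted state the fed knockout liver lacked, matched or exceeded. The comparison uses 12 of the 24 libraries of the series. The 4 fed Bcl6LKO libraries came from male C57BL/6 mice of genotype Bcl6 fl/fl; Alb-Cre with free access to food. The 4 fasted WT libraries came from male C57BL/6 Bcl6 fl/fl mice without Cre after an overnight fast, and the 4 fed WT libraries came from males of the same Cre-free genotype with free access to food. All 12 libraries therefore came from mice with the floxed allele, and Alb-Cre, which is driven by the albumin promoter and acts in hepatocytes, was present only in Bcl6LKO, so the deletion and the Cre transgene cannot be told apart. The age of the mice and the clock time at which the livers were taken are not given in the sources used here. Fed Bcl6LKO and fasted WT stand in separate tables. Their shared reference is fed WT: the same 4 fed WT libraries stand in the table with fed Bcl6LKO and in the table with fasted WT. For each gene the difference reported here is the change of fed Bcl6LKO from fed WT minus the change of fasted WT from fed WT, on the log2 scale. Of 24443 gene names, 12200 had a mean level of at least 4 in 1 or both tables and were tested. Fasted Bcl6LKO and Ppara-null livers are not analysed here.

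In the fasted liver, fatty acids arriving from adipose tissue activate the nuclear receptor PPARα, which switches on genes of mitochondrial and peroxisomal β-oxidation, microsomal ω-hydroxylation and ketone body synthesis. Glucagon, glucocorticoids and low insulin raise gluconeogenesis and amino acid breakdown, while the SREBP and ChREBP programs of fatty acid and cholesterol synthesis are turned down. BCL6 is a zinc finger repressor best known from germinal center B cells. In liver it is more abundant in males, represses many female-biased genes, and binds near genes of lipid metabolism.

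The deposited values are log2 levels whose low values are drawn toward the gene's mean, as in a regularized log transform, and depth is unknown because the tables used hold no counts. In the sum of de-logged levels, Alb took 15.3% to 16.5% in fed Bcl6LKO, 4.87% to 6.22% in fasted WT and 3.66% to 6.37% in fed WT. The shared fed WT libraries showed how far the 2 tables can be joined. Their spread around their own mean was larger in the Bcl6LKO table by a median slope of 1.17 (5th to 95th percentile over genes, 1.08 to 1.44), so a change in the fasting table is somewhat more compressed than one in the Bcl6LKO table. Differences were therefore also computed after multiplying the fasting changes by each gene's slope, called the matched scale below, an alternative chosen after seeing the data. The slope was measured within fed WT only. Whether it holds at the levels reached in fasted WT was not tested, so the matched scale may correct too much or too little. Bcl6 itself was at 7.62, 7.87, 8.54 and 7.85 in fed Bcl6LKO, against 8.02, 9.28, 10.49 and 10.18 in fed WT in the same table. Fed WT replicate 1 lay within the knockout range, and the other fed WT libraries lay above it. Bcl6 was lower in fed Bcl6LKO than in fed WT by a log2 difference of -1.53 (limma, adjusted p = 0.0206), and reads from outside the deleted exons would still be counted. In fasted WT it was at 9.08, 9.57, 7.80 and 7.52, and between fed Bcl6LKO and fasted WT its difference of -0.52 (95% interval -1.40 to 0.36, limma, adjusted p = 0.306) did not pass the test.

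By limma (fold over 2 with an adjusted p under 0.05), 346 genes were higher in fed Bcl6LKO than in fasted WT (2.84% of the genes tested) and 257 were lower (2.11%). The genes that were higher had a median change from fed WT of 1.32 in fed Bcl6LKO and -0.09 in fasted WT, and 275 of the 346 were within 0.5 of fed WT in the fasted livers. The genes that were lower had a median change of -1.06 in fed Bcl6LKO and 0.39 in fasted WT, and 107 of the 257 were within 0.5 of fed WT in the fasted livers. Over all genes tested the median change in fasted WT was -0.0035. The share of all genes within 0.5 was not computed, so these 2 counts do not set the genes apart. Of the 346 higher genes, 87 had a mean under 4 in the fasting table, where changes are compressed. The libraries of both groups did not overlap for 345 of the 346 and for all 257, as against 44.6% of the genes tested. The same libraries made the calls, so this lack of overlap follows largely from the calls and is not separate support. Within its own table, fed Bcl6LKO had 322 genes higher (2.64%) and 185 lower (1.52%) than fed WT. At an adjusted p alone in the comparison with fasted WT, 23.8% of genes were higher and 24.4% lower. When the test asked for a fold beyond 2, 178 genes were higher and 111 lower. With the libraries scaled to equal totals, which lowered the median difference over all genes to -0.13 from -0.0029, 280 were higher and 332 lower, so that the higher genes made up 45.8% of the calls, against 57.4% as deposited.

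The largest positive difference was that of A1bg, a plasma glycoprotein gene that is female-biased in mouse liver. Its levels were 14.90, 14.41, 14.62 and 14.80 in fed Bcl6LKO and 2.60, 2.48, 2.37 and 2.45 in fasted WT. The same fed WT libraries were at 6.07 to 6.31 in the Bcl6LKO table and at 2.34 to 2.48 in the fasting table. The difference through fed WT was 8.38 (SE 0.10, limma, adjusted p = 4.61e-13), and for such nearly silent genes the transform makes it smaller than the gap between the levels as deposited. Cyp2a4, a steroid hydroxylase (7.56, adjusted p = 1.31e-11), Sult2a1, a steroid and bile acid sulfotransferase (6.61), Serpina6, which carries glucocorticoids in plasma (6.05), and Hamp2, a hepcidin (5.61), were also among the largest. In fasted WT each of these was within 0.26 of fed WT on average. Of the 346 higher genes, 87 had a mean under 4 in the fasting table, and restricting the test to genes whose fed WT mean differed by 0.5 or less between the tables left 203 higher.

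BCL6 and STAT factors recognize the core TTCNNNGAA, which reads the same on both strands. RefSeq promoter windows (GRCm38.p6, 250 bases before to 50 after the start) were at hand for 246 of the 346 higher genes, and 12 of them (4.88%) held the core. The share was 6.7% for the lower genes (13 of 194), 7.09% for all genes tested and 8.47% for all windows. Of the 10 genes with the largest positive difference, 7 had a window and those of A1bg and Hamp2 held the core. Both are printed 5′ to 3′ on the strand of the gene with the core in capitals, as the windows of the strongly raised genes that carry it. The A1bg window lies at chr15:60921221-60921520 (minus strand) and the Hamp2 window at chr7:30924132-30924431 (minus strand).
A1bg: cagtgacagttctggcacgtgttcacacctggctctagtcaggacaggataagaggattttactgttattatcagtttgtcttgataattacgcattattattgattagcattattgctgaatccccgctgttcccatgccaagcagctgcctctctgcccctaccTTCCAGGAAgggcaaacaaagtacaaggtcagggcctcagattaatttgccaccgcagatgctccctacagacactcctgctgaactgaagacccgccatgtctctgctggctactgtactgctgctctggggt
Hamp2: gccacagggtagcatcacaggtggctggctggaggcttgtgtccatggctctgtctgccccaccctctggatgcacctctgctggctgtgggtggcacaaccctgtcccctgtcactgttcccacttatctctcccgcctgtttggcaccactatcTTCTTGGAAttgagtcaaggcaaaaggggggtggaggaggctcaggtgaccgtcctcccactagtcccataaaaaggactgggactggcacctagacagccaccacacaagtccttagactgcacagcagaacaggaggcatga
The core begins 84 bases before the start in A1bg and 94 bases before it in Hamp2. A match of letters is not a binding site.

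Fasting raised 74 genes in WT liver (0.607% of the genes tested, fold over 2, limma adjusted p under 0.05) and lowered 64 (0.525%). Of the 74 raised genes, 38 were lower in fed Bcl6LKO than in fasted WT, 4 were higher and 32 were not called. For 19 of the 32, the 95% interval of the difference lay within a fold of 2. The median change of the 74 genes was 0.34 in fed Bcl6LKO and 1.33 in fasted WT. On the matched scale 43 were lower, 3 higher and 28 not called, and with the test against a fold of 2 the calls were 17 lower and 2 higher. Against fed WT (limma, adjusted p under 0.05), 30 of the 74 were higher and 13 lower in fed Bcl6LKO, beside 18.1% and 19.9% of all genes tested. The genes were chosen on the fasted and fed WT libraries, which also enter these comparisons. The counts therefore describe the genes and do not test them.

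**Figure D1:**
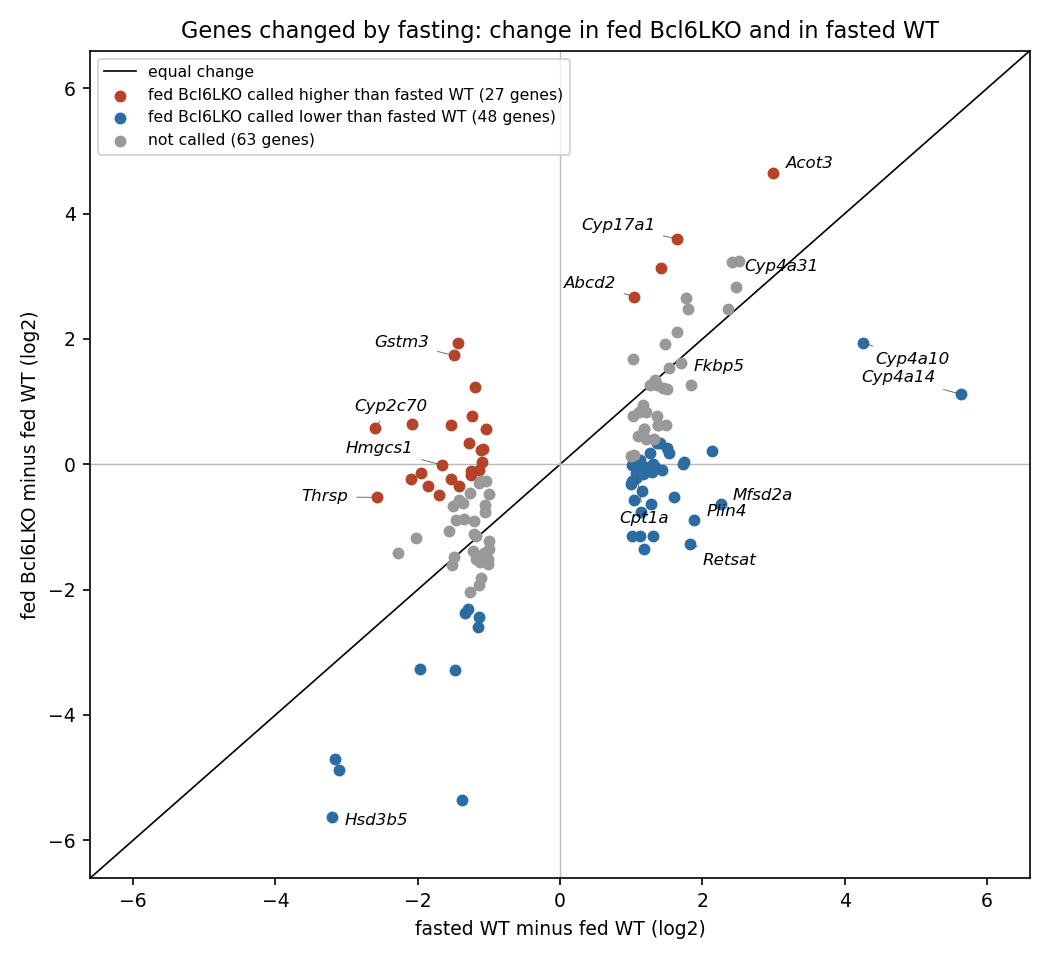
Change from fed WT in fed Bcl6LKO (vertical axis, log2) against change in fasted WT (horizontal axis, log2) for the 138 genes called between fasted and fed WT; each point is 1 gene (mean of 4 libraries) and the diagonal marks equal change. Among the 74 raised genes on the right, 38 (blue) lie far below the diagonal and 4 (red) above it; among the 64 lowered genes on the left, 23 (red) lie above it and 10 (blue) below.

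The widest shortfall of a fasting-raised gene was in microsomal ω-hydroxylation, the endoplasmic reticulum route that begins fatty acid breakdown at the methyl end. Cyp4a14 (chr4:115486200-115496142, GRCm38), a cytochrome P450 and classical PPARα target, stood 1.96, 1.11, -0.05 and 1.44 above the fed WT mean in fed Bcl6LKO and 6.00, 5.39, 5.66 and 5.49 above it in fasted WT. The fed WT libraries themselves ran between -1.41 and 2.17 in the fasting table and between -2.08 and 2.84 in the Bcl6LKO table. Fed Bcl6LKO thus overlapped fed WT, and every fasted library lay above both. For the genes below, such fed WT ranges are those of the fasting table, the more compressed of both. The difference of fed Bcl6LKO from fasted WT was -4.52 (SE 0.34, limma, adjusted p = 1.28e-06), the largest among the fasting-raised genes. Cyp4a10, its neighbor on chromosome 4, was at 2.37, 1.73, 1.85 and 1.82 in fed Bcl6LKO and at 4.36, 4.03, 4.51 and 4.11 in fasted WT. Here all fed Bcl6LKO libraries lay above fed WT (-1.21 to 0.91) and below fasted WT, with a difference of -2.31 (SE 0.14, limma, adjusted p = 3.12e-07). Cyp4a31, another member of the cluster, was at 3.11, 3.16, 3.46 and 3.18 in fed Bcl6LKO and 2.69, 2.07, 2.82 and 2.07 in fasted WT. Its difference of 0.81 (adjusted p = 0.00209) was under a fold of 2 and became -0.14 (adjusted p = 0.639) on the matched scale. Over the 12 tested genes of the ω-hydroxylation list, 10 were lower in fed Bcl6LKO and 1 higher, with a median of -0.88. The shares over all genes tested, 24.4% lower and 23.8% higher, stand beside this and each list count against fasted WT below. Of the 12, 7 were higher in fasted WT than in fed WT, beside 11.6% of all genes tested. Cyp4a12a (difference -5.09) and Cyp4a12b (-4.73) were not called raised by fasting, with changes of -0.02 and 0.25. Their differences are mostly a fall below fed WT, not a missing fasting rise. Reads of such near-identical paralogs, the Acot and Mup families included, can be split between members by the counting.

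Mitochondrial β-oxidation was raised as a group by fasting and stayed near the fed level in fed Bcl6LKO. Of 22 tested genes, 20 were lower in fed Bcl6LKO than in fasted WT (adjusted p under 0.05) and none was higher, with a median difference of -0.58. Against fed WT, 5 were higher and 3 lower in fed Bcl6LKO (median -0.08), beside 18.1% and 19.9% of all genes tested, whereas 20 were higher and none lower in fasted WT (median 0.60), beside 11.6% and 10.9%. Cpt1a encodes the carnitine acyltransferase that admits long-chain fatty acids to mitochondria. It was at -0.20, -0.12, -0.22 and 0.01 from fed WT in fed Bcl6LKO and at 0.86, 0.79, 1.40 and 1.21 in fasted WT. The fed Bcl6LKO libraries lay at or just below fed WT (-0.12 to 0.05), and the difference from fasted WT was -1.20 (SE 0.12, limma, adjusted p = 1.53e-05). Acadm, the medium-chain acyl-CoA dehydrogenase, varied little within a group, at -0.14, -0.24, -0.28 and -0.22 in fed Bcl6LKO and 1.04, 1.03, 1.05 and 1.13 in fasted WT. Its difference was -1.28 (SE 0.05, adjusted p = 7.07e-09), with no overlap. Eci2, an enoyl-CoA isomerase (-1.11), and Slc22a5, the plasma membrane carnitine transporter (-1.33), differed in the same direction, while Crat, carnitine acetyltransferase, fell short by less, with a change of 0.76 in fed Bcl6LKO and 1.36 in fasted WT (difference -0.60, adjusted p = 0.0011).

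Peroxisomal fatty acid oxidation was split between genes far below and genes above the fasted level. Of 23 tested genes, 16 were lower and 3 higher in fed Bcl6LKO than in fasted WT (median -0.73). Scp2, a sterol carrier and peroxisomal thiolase gene, fell in fed Bcl6LKO by 1.91 from fed WT and changed by -0.20 in fasted WT (difference -1.72, adjusted p = 1.15e-08). Acaa1b, a peroxisomal thiolase, changed by -1.23 in fed Bcl6LKO and 0.55 in fasted WT (difference -1.78, adjusted p = 1.14e-07). Abcd2, a peroxisomal transporter of very long-chain acyl-CoA, was at 2.67, 2.62, 2.72 and 2.69 in fed Bcl6LKO and 1.58, 0.75, 0.78 and 1.06 in fasted WT. It exceeded the fasted level in all 4 libraries (difference 1.63, SE 0.15, adjusted p = 6.63e-06), and fed WT spread between -0.72 and 0.77. Acot4, a peroxisomal acyl-CoA thioesterase, rose by 2.48 in fed Bcl6LKO and 1.79 in fasted WT, a difference of 0.68 (95% interval 0.46 to 0.91) that lay within a fold of 2.

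The neighboring thioesterase Acot3 (chr12:84052144-84060402, GRCm38) had the largest rise of any fasting gene in fed Bcl6LKO. It was at 5.05, 4.60, 4.21 and 4.77 from fed WT in fed Bcl6LKO and at 3.66, 2.88, 2.97 and 2.47 in fasted WT. The groups did not overlap, and the difference was 1.66 (SE 0.23, limma, adjusted p = 0.000152). On the matched scale it was 0.62 (adjusted p = 0.0983), so the call that fed Bcl6LKO exceeded fasted WT depends on which scale is used. Acot1, the cytosolic thioesterase of the same cluster, behaved differently, at 0.10, 0.60, -0.30 and 0.47 in fed Bcl6LKO and 2.91, 1.98, 1.86 and 1.77 in fasted WT, with a difference of -1.91 (adjusted p = 0.000102). The other genes raised by fasting and higher still in fed Bcl6LKO were Cyp17a1, a steroid 17α-hydroxylase (3.60 in fed Bcl6LKO, 1.64 in fasted WT, difference 1.96), and Nipal1, a putative magnesium transporter named here after its values were seen (3.13 in fed Bcl6LKO, 1.42 in fasted WT). Both kept an adjusted p under 0.05 on the matched scale (differences 1.60 and 1.30). All 4 genes that exceeded the fasted level, Abcd2 included, also stand on the list of female-biased liver genes, a list drawn up with earlier results of these data known.

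Genes of lipid storage and uptake included several that moved in opposite directions from fed WT. Plin4, a lipid droplet coat protein, was at -0.92, -0.78, -1.15 and -0.71 in fed Bcl6LKO and 1.87, 2.13, 1.73 and 1.82 in fasted WT. Every fed Bcl6LKO library was below every fed WT library (-0.34 to 0.52), every fasted library was above, and the difference was -2.78 (SE 0.11, limma, adjusted p = 7.07e-09). Retsat, retinol saturase, was at -1.09, -1.34, -1.57 and -1.07 in fed Bcl6LKO and 2.04, 1.88, 1.81 and 1.58 in fasted WT. It had the largest negative difference of this list at -3.09 (SE 0.12, adjusted p = 8.42e-09). Mfsd2a, a lysophospholipid transporter outside the list, stood at -0.86, -0.25, -1.05 and -0.40 in fed Bcl6LKO and 1.89, 2.30, 2.69 and 2.14 in fasted WT (difference -2.90, adjusted p = 5.64e-07), and the change of -0.64 from fed WT did not pass (adjusted p = 0.258). Slc27a1, a fatty acid transport protein, was at the fed level in fed Bcl6LKO (0.0027) and up by 1.73 in fasted WT. Over this list 17 of 28 tested genes were lower in fed Bcl6LKO than in fasted WT and 7 higher (median -0.53). The median change from fed WT was -0.01 in fed Bcl6LKO and 0.69 in fasted WT.

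**Figure D2:**
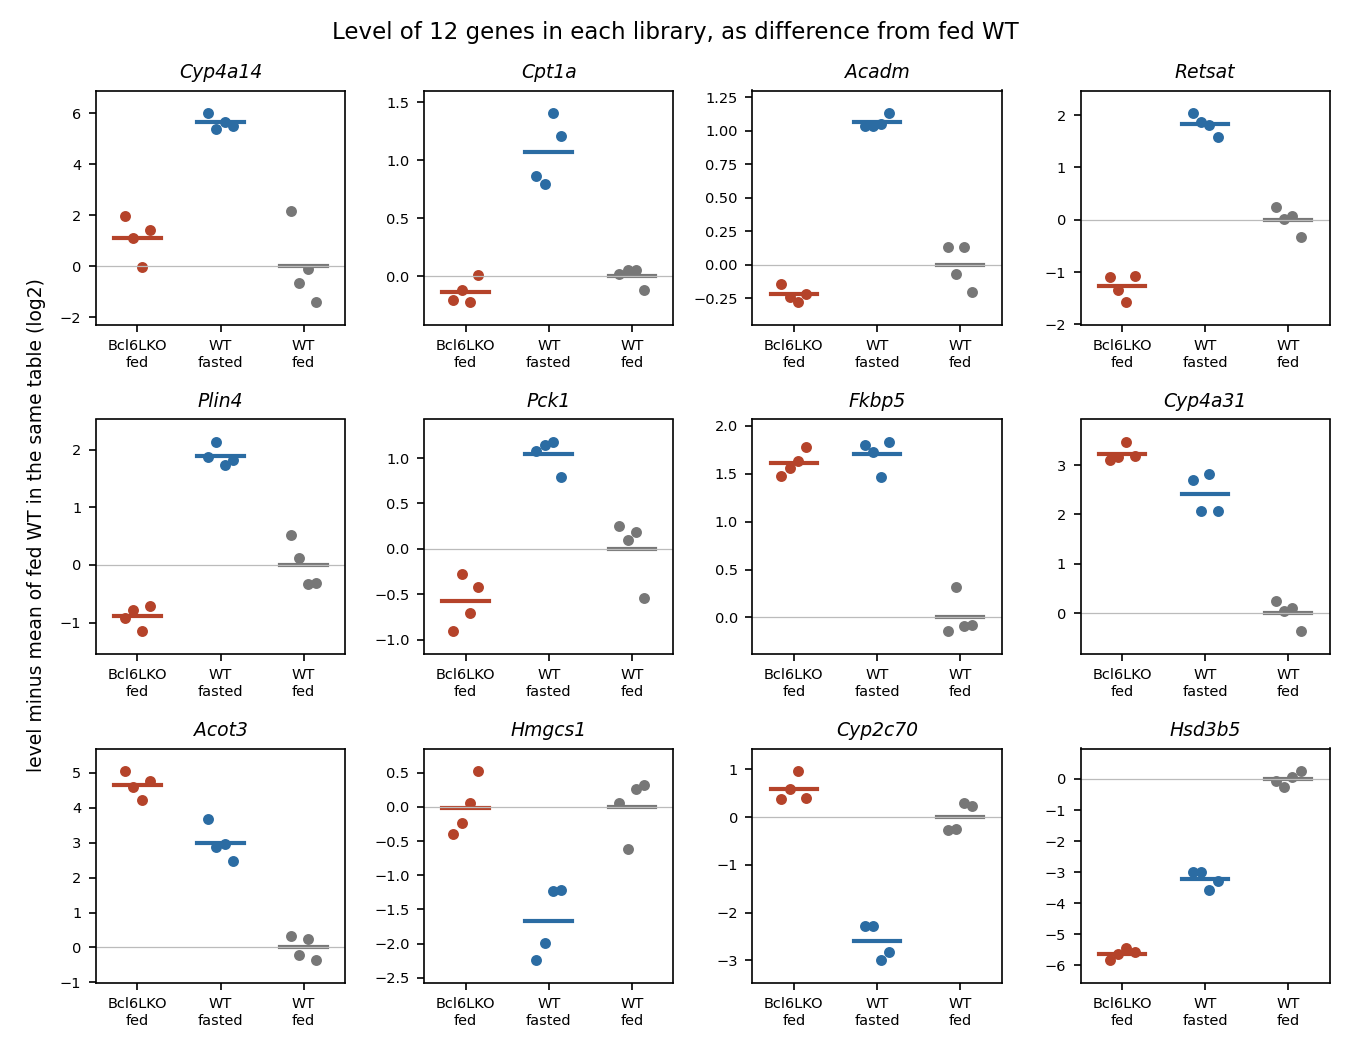
Level of 12 genes in each library as the difference from the mean of the 4 fed WT libraries in the same table (vertical axes, log2; axes differ between panels); points are libraries and bars are group means of 4, with fed WT drawn from the fasting table. Cyp4a14, Cpt1a, Acadm, Retsat, Plin4 and Pck1 are high only in the fasted livers, Fkbp5 is high in both, Hmgcs1 and Cyp2c70 are low only in the fasted livers, and Hsd3b5 is lowest in fed Bcl6LKO.

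Ketone body synthesis and export was mixed. Of 9 tested genes, 6 were lower and 3 higher in fed Bcl6LKO than in fasted WT (median -0.23), with a median change of 0.28 in fed Bcl6LKO and 0.51 in fasted WT. Slc16a6, a transporter that exports ketone bodies from hepatocytes in zebrafish, was at 2.64, 2.70, 2.89 and 2.39 in fed Bcl6LKO and -0.87, -0.80, -0.61 and -0.83 in fasted WT. The groups lay on opposite sides of fed WT, with a difference of 3.43 (SE 0.10, limma, adjusted p = 5.84e-10).

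Genes of glucose production and amino acid breakdown were near the fed level as groups in fed Bcl6LKO, with median changes of -0.07 and -0.04, and above it in fasted WT, with medians of 0.30 and 0.40. Pck1, the cytosolic PEPCK that commits carbon to gluconeogenesis, was at -0.90, -0.28, -0.71 and -0.42 in fed Bcl6LKO and 1.08, 1.14, 1.17 and 0.79 in fasted WT. All fasted libraries were higher, with a difference of -1.62 (SE 0.13, limma, adjusted p = 3.14e-06). Of 22 tested genes of gluconeogenesis and the fasting hormone response, 13 were lower and 5 higher (median -0.44). The 5 higher genes are near the share over all genes tested (23.8%), and the 13 lower are above it (24.4%). Igfbp1, an insulin-repressed binding protein of IGF, was among the higher ones (1.51 in fed Bcl6LKO, 0.32 in fasted WT, difference 1.20, adjusted p = 0.00912, which was 0.0654 with the library as a random block and 0.265 with the fed WT columns as separate samples), and Lpin1, a phosphatidate phosphatase and PPARα coactivator, among the lower ones (-1.46 in fed Bcl6LKO, 0.12 in fasted WT). Of 28 tested genes of the urea cycle and amino acid catabolism, 19 were lower and 2 higher (median -0.51). Asl, the argininosuccinate lyase of the urea cycle, changed by 0.01 in fed Bcl6LKO and 1.30 in fasted WT, Oat, ornithine aminotransferase, changed by -0.17 in fed Bcl6LKO and 1.10 in fasted WT, and Cth, cystathionine γ-lyase, by 0.07 in fed Bcl6LKO and 1.12 in fasted WT. Tdo2, which opens the tryptophan ring, passed the test in opposite directions from fed WT, with all libraries between -1.04 and -0.88 in fed Bcl6LKO and between 0.66 and 0.71 in fasted WT. Its difference was -1.63 (SE 0.06, adjusted p = 3.09e-09). Aass, of lysine breakdown (-1.46), Sds, serine dehydratase (-1.10), and Got1, aspartate aminotransferase (-1.01), also differed.

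For some fasting genes no difference past a fold of 2 was found. Fkbp5, a cochaperone of the glucocorticoid receptor and a standard glucocorticoid target, was at 1.48, 1.56, 1.64 and 1.78 in fed Bcl6LKO and 1.80, 1.73, 1.46 and 1.83 in fasted WT. The ranges overlapped, and the difference of -0.09 had a 95% interval of -0.28 to 0.10 (adjusted p = 0.417). On the matched scale it was -0.32 (adjusted p = 0.0164), still well within a fold of 2. Fmo2, a flavin monooxygenase, was at 1.84, 2.28, 2.17 and 2.14 in fed Bcl6LKO and 1.83, 1.33, 1.57 and 1.84 in fasted WT. Its difference of 0.46 (95% interval 0.19 to 0.74, adjusted p = 0.00939) became 0.09 on the matched scale. Mt1, metallothionein 1, was at 3.84, 2.39, 2.50 and 2.60 in fed Bcl6LKO and 2.60, 3.16, 1.81 and 2.31 in fasted WT. Fed Bcl6LKO replicate 1 stood apart, and the difference of 0.36 (95% interval -0.37 to 1.09, which reaches past a fold of 2, so that Mt1 was undecided) was 0.03 without that library, 0.59 without fasted WT replicate 2 and 0.14 without fasted WT replicate 3.

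Of the 64 genes lowered by fasting, 23 were higher in fed Bcl6LKO than in fasted WT, 10 were lower and 31 were not called, 19 of them with a 95% interval within a fold of 2. Their median change was -0.71 in fed Bcl6LKO and -1.28 in fasted WT. Leaving out fed WT replicate 1 altered which genes counted as lowered by fasting and gave 19 lower instead of 10, and the test against a fold of 2 gave 10 higher and 4 lower. Against fed WT (limma, adjusted p under 0.05), 36 of the 64 were lower and 5 higher in fed Bcl6LKO, beside 19.9% and 18.1% of all genes tested. The fed WT libraries also entered the choice of these genes.

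Of 25 tested genes of cholesterol synthesis, 12 were higher in fed Bcl6LKO than in fasted WT and none lower (median 0.48), 6 of them past a fold of 2. Against fed WT, 10 were lower and 1 higher in fed Bcl6LKO (median -0.35), whereas 18 were lower and none higher in fasted WT (median -0.85). Hmgcs1, the cytosolic HMG-CoA synthase, was at -0.39, -0.23, 0.06 and 0.52 in fed Bcl6LKO and -2.24, -1.99, -1.22 and -1.21 in fasted WT. Fed Bcl6LKO lay within fed WT (-0.62 to 0.31) except for replicate 4, and the difference from fasted WT was 1.65 (SE 0.25, limma, adjusted p = 0.000282). Fdps, farnesyl diphosphate synthase (1.85), Nsdhl, a sterol dehydrogenase (1.51), and Pmvk, phosphomevalonate kinase (1.34), differed likewise. Replicates 1 and 2 of fasted WT were lower than replicates 3 and 4 for Hmgcs1, Fdps and Nsdhl.

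Fatty acid synthesis and glycolysis showed 14 of 23 tested genes higher in fed Bcl6LKO than in fasted WT and 1 lower (median 0.48). Srebf1, the gene of the master lipogenic factor SREBP-1, was at -0.75, -0.52, -0.28 and -0.42 in fed Bcl6LKO and -2.11, -1.79, -1.61 and -1.28 in fasted WT. It was below fed WT in both, and the difference was 1.21 (SE 0.15, limma, adjusted p = 7.95e-05). Acacb, the acetyl-CoA carboxylase that makes malonyl-CoA at mitochondria, where it inhibits CPT1, was at 0.52, 0.60, 0.99 and 0.98 in fed Bcl6LKO and -1.25, -1.47, -1.01 and -1.20 in fasted WT. It rose in fed Bcl6LKO (adjusted p = 0.00426) and fell in fasted WT (adjusted p = 0.000392), with a difference of 2.01. Thrsp, the lipogenic spot 14 protein, spread widely in fed Bcl6LKO at -1.50, -0.74, 0.05 and 0.09 and was at -3.13, -2.46, -2.48 and -2.24 in fasted WT. The groups did not overlap (difference 2.05, SE 0.32, adjusted p = 0.000323). Fasn, fatty acid synthase, fell in both, at -1.87, -1.16, -0.88 and -0.80 in fed Bcl6LKO and -2.55, -2.16, -1.76 and -1.62 in fasted WT. The ranges overlapped and the difference of 0.84 was under a fold of 2. Pnpla3, a lipid droplet lipase and SREBP-1 target, was at 2.33, 3.28, 3.80 and 3.10 in fed Bcl6LKO and -0.36, -0.50, -0.44 and -0.54 in fasted WT (difference 3.59, adjusted p = 4.93e-07). Fads1, the Δ5 desaturase, also differed (1.96), with a change of 1.70 in fed Bcl6LKO and -0.26 in fasted WT.

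Some enzymes outside lipid synthesis were lowered by fasting and not in fed Bcl6LKO. Cyp2c70, which hydroxylates bile acids to muricholic acids in mice, was at 0.39, 0.59, 0.96 and 0.40 in fed Bcl6LKO and -2.28, -2.29, -3.00 and -2.84 in fasted WT, with a difference of 3.19 (SE 0.18, limma, adjusted p = 1.31e-07). Cyp26a1, a retinoic acid hydroxylase, changed by 0.65 in fed Bcl6LKO (adjusted p = 0.0799) and -2.08 in fasted WT. Gstm3, a glutathione transferase, changed by 1.74 in fed Bcl6LKO and -1.50 in fasted WT (difference 3.23, adjusted p = 1.34e-08).

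Of the fasting-lowered genes that were lower still in fed Bcl6LKO, Hsd3b5 (chr3:98618634-98630252, GRCm38), a male-specific steroid dehydrogenase, was the lowest. It was at -5.83, -5.64, -5.45 and -5.56 in fed Bcl6LKO and -2.98, -2.98, -3.58 and -3.27 in fasted WT. Both groups were far below fed WT (-0.26 to 0.25), and the difference was -2.42 (SE 0.13, limma, adjusted p = 1.16e-07). Selenbp2, a selenium-binding protein (-4.88 in fed Bcl6LKO, -3.11 in fasted WT), Serpina4-ps1, a serpin pseudogene (-4.71 in fed Bcl6LKO, -3.17 in fasted WT), Nudt7, a peroxisomal CoA diphosphatase (-3.26 in fed Bcl6LKO, -1.97 in fasted WT), and Cyp7b1, an oxysterol hydroxylase (-2.37 in fed Bcl6LKO, -1.33 in fasted WT), had the same order. Of 31 tested genes on the male-biased list, 30 were lower in fed Bcl6LKO than in fasted WT, beside 24.4% of all genes tested. The median difference was -2.42, and the list fell in fed Bcl6LKO by a median of 3.41. The male-biased and female-biased lists were drawn up with earlier results of these data known, so their counts describe the lists and do not test them. Among the largest negative differences were Mup7 (-6.56, adjusted p = 1.23e-08) and Mup11 (-6.51), major urinary proteins, Cyp2d9 (-5.31), Serpina1e (-5.16), an α1-antitrypsin paralog, and Cyp4a12a (-5.09), an arachidonic acid ω-hydroxylase. Cyp4a12a lies on the ω-hydroxylation list too, and was at -5.36, -5.06, -4.80 and -5.20 in fed Bcl6LKO and -0.09, 0.09, -0.18 and 0.10 in fasted WT. Of 33 tested female-biased genes, 31 were higher and 2 lower (median 3.67), beside 23.8% and 24.4% of all genes tested. Their median change was 3.75 in fed Bcl6LKO and 0.21 in fasted WT.

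**Figure D3:**
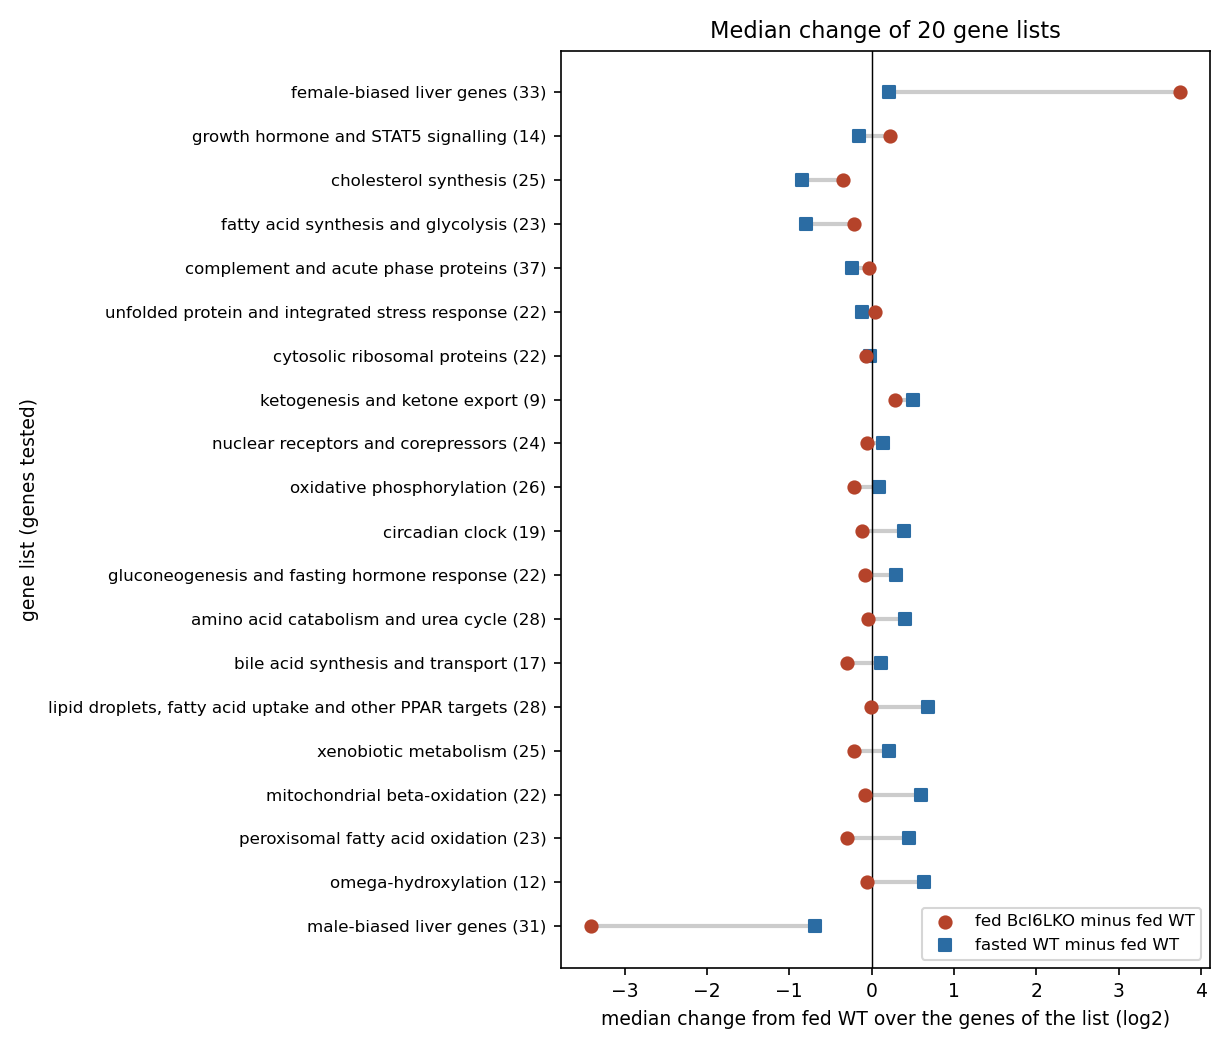
Median change from fed WT (horizontal axis, log2) over the tested genes of 20 gene lists, in fed Bcl6LKO (red circles) and in fasted WT (blue squares); numbers in brackets are genes tested, and lists are ordered by the median difference. The β-oxidation lists sit near 0 or below in fed Bcl6LKO and above 0 in fasted WT, cholesterol synthesis is at -0.35 in fed Bcl6LKO and -0.85 in fasted WT, and the male-biased and female-biased lists part by the most. The lists were drawn up with earlier results of these data known.

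Growth hormone signaling, which sets the sex pattern of the liver through STAT5, had 6 of 14 tested genes higher and 2 lower (median 0.58). Prlr, the prolactin receptor, was at 4.84, 4.60, 4.66 and 4.65 in fed Bcl6LKO and 0.61, 0.57, 0.45 and 0.40 in fasted WT (difference 4.18, SE 0.07, limma, adjusted p = 7.48e-12). Lifr, the leukemia inhibitory factor receptor, was at 2.60, 2.42, 2.67 and 2.50 in fed Bcl6LKO and -0.74, -0.90, -1.01 and -1.06 in fasted WT, on opposite sides of fed WT. Ghr, the growth hormone receptor (2.22), and Socs2, a feedback inhibitor of the pathway (2.03), were higher as well.

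The receptors of the PPAR family differed by less than a fold of 2. Ppara was at -0.26, -0.15, -0.26 and -0.13 in fed Bcl6LKO and 0.48, 0.53, 0.53 and 0.29 in fasted WT, a difference of -0.65 (SE 0.07, limma, adjusted p = 1.46e-05) without overlap. Ppard was at 0.60, 0.56, 1.06 and 0.70 in fed Bcl6LKO and 0.11, 0.10, 0.09 and 0.14 in fasted WT, and was higher by 0.62 (SE 0.10, adjusted p = 0.000371). Pparg, which drives fat storage, was lower by 0.65 (adjusted p = 0.000199), with a change of -0.76 in fed Bcl6LKO and -0.11 in fasted WT. For all 3 genes the libraries of both groups did not overlap. The list of 24 nuclear receptors and corepressors had 14 lower and 4 higher (median -0.24), with Nr1i3, the xenobiotic receptor CAR, at 0.26 in fed Bcl6LKO and 1.50 in fasted WT (difference -1.24, adjusted p = 1.3e-06).

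Xenobiotic and bile acid genes followed several patterns. Of 25 tested xenobiotic genes, 14 were lower and 8 higher in fed Bcl6LKO than in fasted WT (median -0.54). Cyp3a11, the main hepatic CYP3A of male mice, was at -2.23, -1.82, -2.88 and -2.75 in fed Bcl6LKO and 0.73, 0.74, -0.07 and 0.09 in fasted WT (difference -2.79, SE 0.25, limma, adjusted p = 4.81e-06). Cyp2b10, a CAR target, was at 3.97, 3.56, 3.70 and 3.76 in fed Bcl6LKO and 0.13, 0.26, -0.08 and 0.18 in fasted WT. Abcc3, a basolateral efflux pump of conjugates, was lower (-2.72). Of 17 tested genes of bile acid synthesis and transport, 11 were lower and 3 higher (median -0.52). The uptake carriers Slc10a1 (-1.08) and Slco1b2 (-1.07), near the fed level in fasted WT, were lower, Abcb4, the canalicular phospholipid flippase, changed by -0.30 in fed Bcl6LKO and 0.81 in fasted WT, and Abcb11, the bile salt export pump, by -0.09 in fed Bcl6LKO and -1.14 in fasted WT. Cyp8b1, which makes cholic acid, changed by -0.02 in fed Bcl6LKO and 1.01 in fasted WT (difference -1.03, adjusted p = 0.00184).

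Clock output also separated the groups. Per2 was at -1.53, -0.96, -1.07 and -0.96 in fed Bcl6LKO and 0.48, 0.64, 0.89 and 0.60 in fasted WT (difference -1.79, SE 0.13, limma, adjusted p = 9.55e-07), and Ciart, a repressor of CLOCK-BMAL1, was at -1.24, -1.30, -1.20 and -0.82 in fed Bcl6LKO and 1.08, 1.42, 1.42 and 1.29 in fasted WT (difference -2.44). Arntl, the gene of BMAL1, went the other way, at 1.42, 0.97, 1.34 and 1.12 in fed Bcl6LKO and -0.32, -0.30, -0.31 and -0.18 in fasted WT (difference 1.49, adjusted p = 3.95e-07). Usp2, a clock-controlled deubiquitinase, was lower by 1.70. Of 19 tested clock genes, 11 were lower and 2 higher (median -0.41). Genotype, feeding and the unstated time of collection cannot be told apart for these genes.

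Among secreted liver proteins, 18 of 37 tested complement and acute phase genes were higher and 10 lower (median 0.30). The terminal complement genes formed the low end: C9 was at -3.91, -3.87, -3.68 and -4.56 in fed Bcl6LKO and -0.91, -0.60, -0.73 and -0.87 in fasted WT (difference -3.23, SE 0.16, limma, adjusted p = 5.18e-08), and C8a (-2.72), C8b (-2.68) and C6 (-2.55) were close to it. C6, C8a and C9 stand on the male-biased list as well. These 4 genes were also lower in fasted WT than in fed WT, by -0.64 to -0.78. Alb was at 1.88, 1.77, 1.81 and 1.89 in fed Bcl6LKO and 0.46, 0.37, 0.10 and 0.38 in fasted WT (difference 1.51, SE 0.16, adjusted p = 1.6e-05). The albumin promoter also drives Cre here. Trf, transferrin, was higher by 1.55. Of 26 tested genes of oxidative phosphorylation, 22 were lower and none higher, by a small median of -0.29, and of 22 cytosolic ribosomal protein genes 4 were lower and none higher (median -0.04). In the stress response list, 6 of 22 were higher and 4 lower (median 0.10, turning to -0.02 at equal totals). Both stress counts and the count of lower ribosomal genes were near the shares over all genes tested (23.8% higher, 24.4% lower). They do not set these lists apart.

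Markers of other liver cells also differed between the groups. Their summed de-logged levels are given beside fed WT of the same table, since sums were not bridged. For 14 stellate cell and fibroblast markers the sums were 11086 to 13805 in fed Bcl6LKO, against 8563 to 11340 in fed WT, and 8020 to 9497 in fasted WT, against 8374 to 10744 in fed WT. Both groups overlapped fed WT of their table, and through the bridge 10 of the 14 genes were higher in fed Bcl6LKO than in fasted WT (median 0.45). Col3a1, a fibrillar collagen, was at 0.05, 0.69, 0.22 and 0.40 in fed Bcl6LKO and -1.41, -1.17, -1.19 and -1.37 in fasted WT (difference 1.62, limma, adjusted p = 1.16e-06), and Col1a1 had a difference of 1.40. For 14 endothelial markers the sums were 12950 to 14719 in fed Bcl6LKO, against 11193 to 12312 in fed WT, and 10589 to 12102 in fasted WT, against 11077 to 12096 in fed WT, with 9 genes higher in fed Bcl6LKO than in fasted WT (median 0.23). For 13 Kupffer cell and macrophage markers they were 7770 to 10600 in fed Bcl6LKO, against 7370 to 9531 in fed WT, and 6372 to 8053 in fasted WT, against 7301 to 9195 in fed WT, with 6 genes higher (median 0.22). Lymphocyte sums were 391 to 436 in fed Bcl6LKO, against 316 to 370 in fed WT, and 266 to 314 in fasted WT, against 299 to 341 in fed WT. Neutrophil sums in fed Bcl6LKO (72 to 93) lay inside those of fed WT (58 to 102), those in fasted WT (48 to 51) lay inside those of fed WT in the fasting table (47 to 69), and cholangiocyte sums overlapped in both tables. Erythroid sums were 6364 to 11428 in fed Bcl6LKO, against 4949 to 7565 in fed WT, and 12091 to 15334 in fasted WT, against 5488 to 8024 in fed WT, with 7 of 10 tested markers lower in fed Bcl6LKO than in fasted WT and 1 higher (median -0.57). Hbb-b1, an adult β-globin, was at 1.28, 0.31, 0.60 and 0.32 in fed Bcl6LKO and 1.41, 1.17, 1.59 and 1.35 in fasted WT, and Hba-a2, an α-globin, changed by 0.56 in fed Bcl6LKO and 1.18 in fasted WT. Of 11 pancreas, adipose and muscle markers, 4 were listed at 0 in every library and the sum of the rest did not exceed 5. At equal totals, the genes higher in fed Bcl6LKO than in fasted WT were 8 of 14 stellate cell and fibroblast markers (median 0.32). They were 4 of 14 endothelial markers (median 0.11) and 2 of 13 Kupffer cell and macrophage markers (median 0.09). The erythroid counts stayed at 7 lower and 1 higher. In whole liver, fewer cells of a type and less RNA per cell cannot be told apart, and the part of these markers in the differences above was not tested.

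The scale of the bridge mattered most for genes with a large fasting change. On the matched scale, in which the fasting changes are larger, Cyp4a14 had a difference of -6.48, Cyp4a10 of -3.40 and Retsat of -3.35, while Acot3 fell under the threshold. For A1bg, which did not respond to fasting, the matched value was 8.42. Over all genes, 356 were higher and 275 lower.

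**Figure D4:**
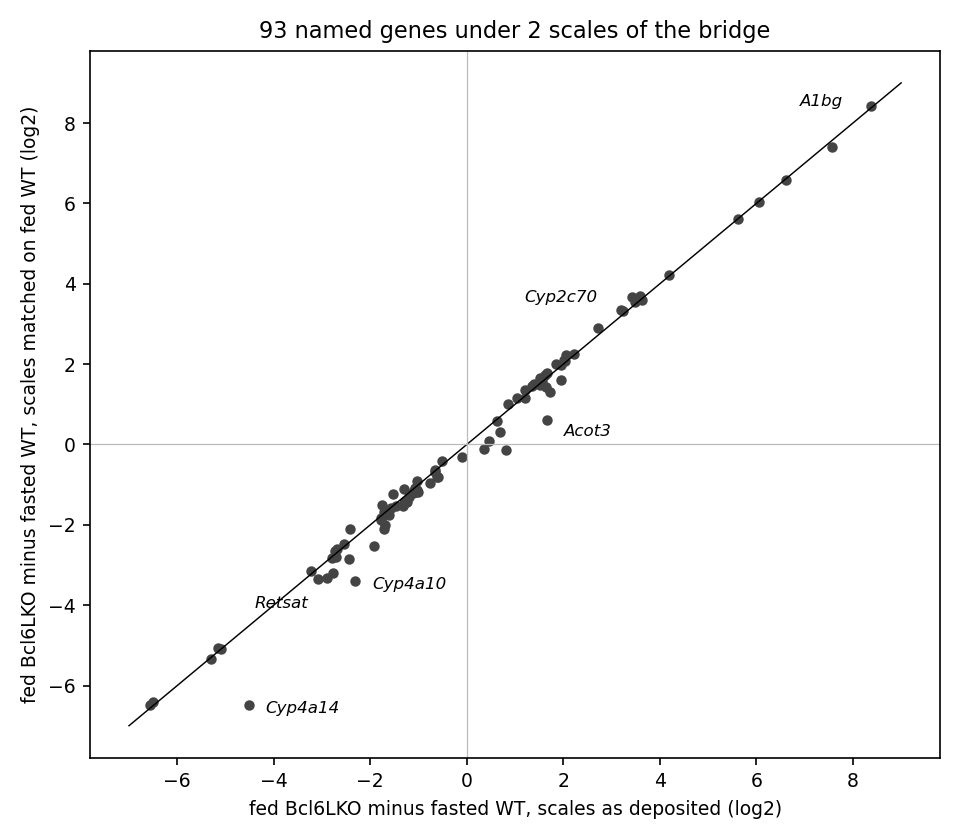
Difference of fed Bcl6LKO from fasted WT for the 93 genes named in the text, with the scales as deposited (horizontal axis, log2) and after matching the scale of the fasting table to the Bcl6LKO table on fed WT (vertical axis, log2); the diagonal marks equal values. Most genes lie on the diagonal, Cyp4a14 moves to -6.48 and Acot3 to 0.62.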

How the data were processed

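Liver total RNA was depleted of ribosomal RNA and sequenced with a stranded kit. The authors used STAR, HOMER and DESeq2 on the mm10 build, per the submitters' processing notes. The authors deposited 1 table per comparison, and the 8 library columns of each table used here hold log2 levels; their values look like a regularized log transform of counts made within that table, which no source used here states; the same tables also hold the authors' fold changes and p-values, which were not used.

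Each library was expressed as its difference from the mean of the 4 fed WT columns of its own table. The 4 fed Bcl6LKO and 4 fasted WT libraries were then compared with limma 3.58.1 (R 4.3.3, empirical Bayes with trend, two-sided, Benjamini-Hochberg over 12200 genes with a mean of at least 4 in 1 or both tables). A gene was called past a fold of 2 with an adjusted p under 0.05; gene lists were counted at adjusted p under 0.05 alone. Each change from fed WT was tested within its own table. The fit was checked on simulated data. There the adjusted p alone let through more false calls than its threshold allows, which bears on the list counts, and no false call also passed a fold of 2. The simulated fasted libraries carried no fasting change. The check could therefore not show errors from unequal compression of such changes, at any fold. No source used here says that each library is another animal; the p-values then cover only the scatter of these libraries, which may be technical.

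The genes, lists and tests were chosen with earlier results of these data known. Named genes are Bcl6, the PPAR genes, up to 10 genes per direction with the largest called difference, up to 10 per direction with the largest fasting change, and the leading members of each list; Nipal1 is outside this rule, and a gene that the rule selects is not reported here. Deviations of same-numbered fasted and fed WT libraries correlated at r = 0.256, 0.133, 0.206 and 0.150. For fed Bcl6LKO, r was 0.017 to 0.233 with fasted WT and -0.134 to 0.084 with fed WT. Correlations of differently numbered libraries were not computed, so whether the numbers pair samples was left undecided. The main tests used no pairing. A replicate block gave 75 genes raised and 68 lowered by fasting, beside 74 and 64 without it. Alternatives were other filters, scalings and bridges, limma settings, the replicate block and leaving out each library. Coordinates are from the GENCODE annotation of GRCm38, promoters from RefSeq.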

Additional observations from a re-analysis of the deposited data

Results flagged for a closer look

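In 13 of 279 sets of 4 libraries, 1 library stood far from the other 3 for a named gene, where chance alone flags about 1 in 20. The only fed Bcl6LKO library among them was replicate 1 for Mt1, at a log2 level of 11.63 with the others between 10.18 and 10.39. In fasted WT, replicate 4 was high for Acadm (12.64, others 12.54 to 12.56) and Arntl (5.96, others 5.83 to 5.84), and replicate 3 was low for Trf (17.09, others 17.27 to 17.30) and high for Col1a1 (7.36, others 7.09 to 7.12). In fed WT in the fasting table, replicate 1 was apart for Pparg (7.70, others 7.29 to 7.33), Cyp7b1 (11.72, others 12.47 to 12.51), Per2 (8.74, others 9.23 to 9.30), Cyp2b10 (4.58, others 4.21 to 4.27), Mup7 (13.08, others 14.29 to 14.48) and Cyp2d9 (13.74, others 14.01 to 14.06). This library, which also had the lowest Bcl6 of the fed WT livers, was thus low for Cyp7b1, Mup7 and Cyp2d9. Fed WT replicate 2 was high for Fkbp5 (9.56, others 9.10 to 9.16) and replicate 4 for A1bg (2.48, others 2.34 to 2.36).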

How the results depend on the processing

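Of 2493 values of 93 named genes under 27 alternatives, 2436 had the direction and side of the threshold reported. The replicate block left the difference between fed Bcl6LKO and fasted WT at 346 higher and 257 lower, gave 75 raised and 68 lowered by fasting, and changed no call of a named gene. Signs turned for Fkbp5 under quantile normalization (0.039) and, on the matched scale, for Cyp4a31 (-0.14) and Mt1 (-0.11). Alb became 0 under quantile normalization because it ranks first in every library. With the fed WT columns entered as separate samples, Igfbp1 (adjusted p = 0.265), Fasn (0.152), Fmo2 (0.0509), Hbb-b1 (0.0826) and Hba-a2 (0.134) no longer passed by limma; Igfbp1 (0.0654) did not pass with the library as a random block, nor Fasn (0.0563) with a robust prior. With the test against a fold of 2, 178 genes were higher and 111 lower in fed Bcl6LKO than in fasted WT, 17 of the raised genes were lower, 2 higher and 55 not called, and 4 of the lowered genes were lower, 10 higher and 50 not called. Restricting to genes whose fed WT means agree within 0.5 between the tables gave 203 higher, and equal totals gave 284 genes lower in fed Bcl6LKO than in fed WT. The cause of these shifts was not tested. Without the bridge, 514 were higher and 381 lower.

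Leaving out 1 library gave 341 to 351 genes higher and 243 to 260 lower in fed Bcl6LKO than in fasted WT. It gave 315 to 332 higher and 178 to 192 lower against fed WT, and 68 to 80 genes raised and 55 to 70 lowered by fasting. Of the raised genes, 32 to 41 were lower, 3 to 6 higher and 30 to 37 not called; of the lowered genes, 8 to 19 were lower, 20 to 25 higher and 23 to 34 not called, the 19 being without fed WT replicate 1. Depth is unknown, genes near silence are compressed toward their mean, and the error of the difference does not include the unequal compression of the tables. Time of collection, genotype and Cre are not separable in this design.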
